A study of Mus musculus with 25 samples.

Results

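CD4 T cells of naive mice without miR-150 were compared with CD4 T cells of naive miR-150 knock-in mice, gene by gene. The 8 libraries that make up this comparison, 4 labelled knock-out and naive and 4 labelled knock-in and naive, were chosen by their sample titles from 25 libraries in the whole series. All mice were of the strain C57BL/6NTac, and the groups differed at the miR-150 locus: the knock-out, the knock-in and wild-type. Naive groups came from mice without induced disease. Below, naive refers to this state of the mice, and naive cells are their CD4 T cells, not a subset of them. The remaining groups were sampled at day 7 of experimental autoimmune encephalomyelitis (EAE), a mouse model of multiple sclerosis that is started by immunization. The labels name sorted CD4 T cells as the source, RNA from a miRNeasy kit and total RNA libraries. Age, sex, the cells in which the knock-in allele is active and the way it was made are not in the labels. Whether each library of a group stands for its own mouse is not stated either. The p-values therefore describe the spread between libraries, part or all of which may be technical.

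MicroRNAs guide Argonaute proteins to messenger RNAs that pair with the seed near their 5′ end, which lowers translation and the stability of the message. miR-150 is abundant in resting mature lymphocytes and falls when T cells are activated. Its best known target is Myb, a transcription factor of lymphocyte progenitors. The precursor is encoded by Mir150 on mouse chromosome 7. The 3p arm is given as a part of the precursor that is counted here. The arm known to act on Myb is the 5p arm, which is not given. The sequence is the RefSeq entry for the 3p arm on GRCm38.p6, chr7:45121798-45121819 on the plus strand, with the seed (bases 2 to 8) in capitals.
mmu-miR-150-3p: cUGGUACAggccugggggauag

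Hspa8 and Jun, of the heat shock and early response genes, were called in this comparison, so stretches of promoters of that list are shown. Heat shock factor binds inverted repeats of GAA, and the stretches hold the words GAANNTTC or TTCNNGAA, with 1 word of each in capitals. The stretch of Hspe1 holds 2 further words, of which 1 overlaps the word in capitals and the other overlaps that further word. Their remaining letters are left in lower case. All come from RefSeq windows of GRCm38.p6, 250 bases before to 50 after the start of the gene.
Hspa1a, chr17:34972242-34972271, minus strand: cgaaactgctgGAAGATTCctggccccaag
Dnaja1, chr4:40722333-40722362, plus strand: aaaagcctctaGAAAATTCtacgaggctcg
Hspe1, chr1:55088048-55088077, plus strand: gccacggtccgTTCTAGAAccttccggaag
Jun, chr4:95052332-95052361, minus strand: ggcccagagaaGAATCTTCtagggtgaggt
Either word, on either strand, was present in 9 of the 30 early response and heat shock genes with a window (30%) and in 14.1% of the 9434 tested genes with one. Hspa8 was not among the genes with a window. Of 18 called genes with a window 3 held the word: Jun and Igsf23, lower in the knock-out, and Dpp4, higher. The AP-1 word TGANTCA was in 6.67% of the early response and heat shock genes and 5.66% of tested genes, and the CRE word TGACGTCA in 6.67% and 3.71%. The 9 genes with the heat shock word were Dnaja1, Egr2, Fosl2, Hspa1a, Hspa1b, Hspd1, Hspe1, Hsph1 and Jun. Egr2 and Fosl2 leaned higher in the knock-out (log2 fold change 0.16 and 0.35). The others, those shown included, leaned lower. Hspd1 and Hspe1, the partner chaperonins of mitochondria, start head to head and share the stretch, so their windows are not independent. The stretch of Hspa1b reads as that of Hspa1a. A word is a description of letters, not a binding site.

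The deposited counts per library ran from 13917799 to 43640843 in the knock-out and from 6454287 to 45739082 in the knock-in. Wild-type naive libraries were at 6024043 to 9351180. Of 46078 genes in the table, 14703 had enough counts to be tested. Levels below are CPM, counts scaled to a common library size with TMM factors, as mean ± SD, and differences are log2 fold changes, knock-out minus knock-in, with their standard error (SE). Correlation of log2 CPM ran from 0.955 to 0.967 among knock-out libraries, from 0.966 to 0.984 among knock-in libraries and from 0.951 to 0.977 between the genotypes. The 12 T cell identity genes, Cd4 and Cd3g among them, were all tested and their summed level was 3216 to 3342 CPM in the knock-out and 3108 to 3308 CPM in the knock-in. Of the markers of other cells, Pecam1, which T cells can also express, had 268 and 240 CPM in the knock-out and the knock-in, and Ighm, the heavy chain of IgM, had 157 and 160 CPM. Summed B cell markers were at 165.2 to 262.9 CPM in the knock-out and 158.4 to 217.6 CPM in the knock-in, and those of stroma and endothelium at 246 to 297 CPM and 228 to 251 CPM. Summed regulatory T cell genes were at 355 to 446 CPM in the knock-out and 387 to 486 CPM in the knock-in. Foxp3, one of them, averaged 56.4 and 63.1 CPM. In bulk samples fewer cells of a type and less RNA per cell cannot be told apart.

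The targeted gene followed the labels. Mir150 (ENSMUSG00000065495, chr7:45121757-45121821 on mm10) had 0 counts in each of the 4 knock-out naive libraries. Knock-in naive libraries had 12.9, 14.1, 13.9 and 16.2 CPM, and wild-type naive libraries had 24.5, 23.9, 17.9 and 14.4 CPM. Knock-out and knock-in libraries did not overlap. With a limit of 3 counts over the knock-out group, the level was at least 536-fold lower than in the knock-in. The knock-in mean of 14.3 ± 1.42 CPM (SD, n = 4) was not above the wild-type mean of 20.2 ± 4.86 CPM (SD, n = 4), with a log2 difference of -0.50 (SE 0.296) that edgeR did not call. Total RNA libraries of this kind are not made to capture mature microRNAs, so these are fragments of the precursor gene.

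Few messages differed in the main test. In the edgeR quasi-likelihood fit over all 25 libraries, 24 genes passed an adjusted p of 0.05, which is 0.163% of genes tested. Of these, 15 were higher in the knock-out (0.102%) and 9 were lower (0.0612%). At an unadjusted p under 0.05 there were 1323 genes. The count was 111 with DESeq2, 137 with limma voom and 269 with edgeR and no filter on low counts. Differences were small: 13 of the 24 genes changed by less than 1.5-fold, 7 by more than 2-fold, and the median size was 0.57 on the log2 scale. Over all genes tested the median log2 fold change was 0.01, and 52.2% were positive. Libraries of the knock-out and the knock-in did not overlap for 23 of the 24 genes. Among all tested genes such separation was seen for 3.41% in the higher direction and 3.56% in the lower. The 24 genes were called on these same libraries, so their separation is a description.

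Several of the 15 higher genes encode membrane proteins. Sidt1, a multipass membrane protein of a family linked to RNA uptake, was 1.45-fold higher in the knock-out. Its libraries were at 179, 152, 166 and 162 CPM in the knock-out and at 105, 121, 124 and 104 CPM in the knock-in. Every knock-out library lay above every knock-in library, and the wild-type libraries, at 121 to 135 CPM, lay among and just above those of the knock-in. The log2 fold change was 0.54 (SE 0.0750, edgeR adjusted p = 0.000646).

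Tnfrsf25, the death receptor 3 of T cells that binds the cytokine TL1A, had 38.8, 32.8, 35.4 and 33.7 CPM in the knock-out and 24.4, 20.4, 24.3 and 19.9 CPM in the knock-in. The groups were well apart, with wild-type libraries between them at 25.5 to 30 CPM. Its log2 fold change was 0.65 (SE 0.0978, edgeR adjusted p = 0.00137). Slc4a7, a sodium bicarbonate cotransporter, had 51.5, 49.0, 54.2 and 46.3 CPM against 34.1, 32.3, 37.1 and 29.9 CPM, also without overlap (log2 fold change 0.58, SE 0.0970, edgeR adjusted p = 0.00479). Dpp4, the surface peptidase CD26, was at 86.3 to 98.9 CPM in the knock-out and 56.9 to 80.4 CPM in the knock-in, where replicate 3 was the highest (log2 fold change 0.50, edgeR adjusted p = 0.0201).

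Mtss1, a scaffold protein at the junction of membrane and actin, was high and even in knock-out libraries and split in the knock-in. Knock-out libraries had 95.9, 86.5, 88.5 and 90.5 CPM, and knock-in libraries had 32.5, 34.5, 71.9 and 68.2 CPM. Knock-in replicates 1 and 2 were low and replicates 3 and 4 were close to the wild-type range of 74.5 to 78.4 CPM. The log2 fold change of 0.81 (SE 0.158, edgeR adjusted p = 0.0204) averages over these unlike knock-in libraries.

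Also higher were Cdc25b, Lsp1, Arhgdia, Myo1c and Eml3. Cdc25b, the phosphatase that activates cyclin-dependent kinases, was 2.15-fold higher, with 26.3 to 37.8 CPM in the knock-out and 13.5 to 16.6 CPM in the knock-in (edgeR adjusted p = 0.0204). Lsp1, an actin-binding protein of leukocytes, was at 282 to 314 CPM against 220 to 250 CPM. Arhgdia, a GDP-dissociation inhibitor of small GTPases, was at 190.1 to 206.2 CPM against 148 to 165 CPM. Myo1c, a single-headed myosin, was at 12 to 18 CPM against 8.96 to 10.9 CPM. Eml3, a microtubule-binding protein, had 39.7 CPM in knock-out replicate 2 and 48.3 to 50.3 CPM in the others, against 29.4 to 35.8 CPM in the knock-in. None of these overlapped. The S-phase and mitosis list, of which 38 genes were tested, had a median of 0.08 and no gene called by edgeR, DESeq2 or limma voom, nor any at an unadjusted edgeR p under 0.05. Cdc25b is not on it.

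The remaining higher genes were mainly enzymes and a non-classical MHC gene. Faah, which degrades fatty acid amides such as anandamide, had 134 to 142 CPM in the knock-out and 109 to 119 CPM in the knock-in, a 1.22-fold difference (edgeR adjusted p = 0.0359). Dglucy, a mitochondrial D-glutamate cyclase, had 23.7 to 31.8 CPM against 15.6 to 21.1 CPM. H2-T22, a class Ib MHC molecule recognized by some gamma-delta T cell receptors, had 131 to 172 CPM against 105 to 130 CPM, so its groups only just cleared each other. It was the sole called gene of 21 tested MHC class I and antigen processing genes, whose median was 0.10.

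**Figure D1:**
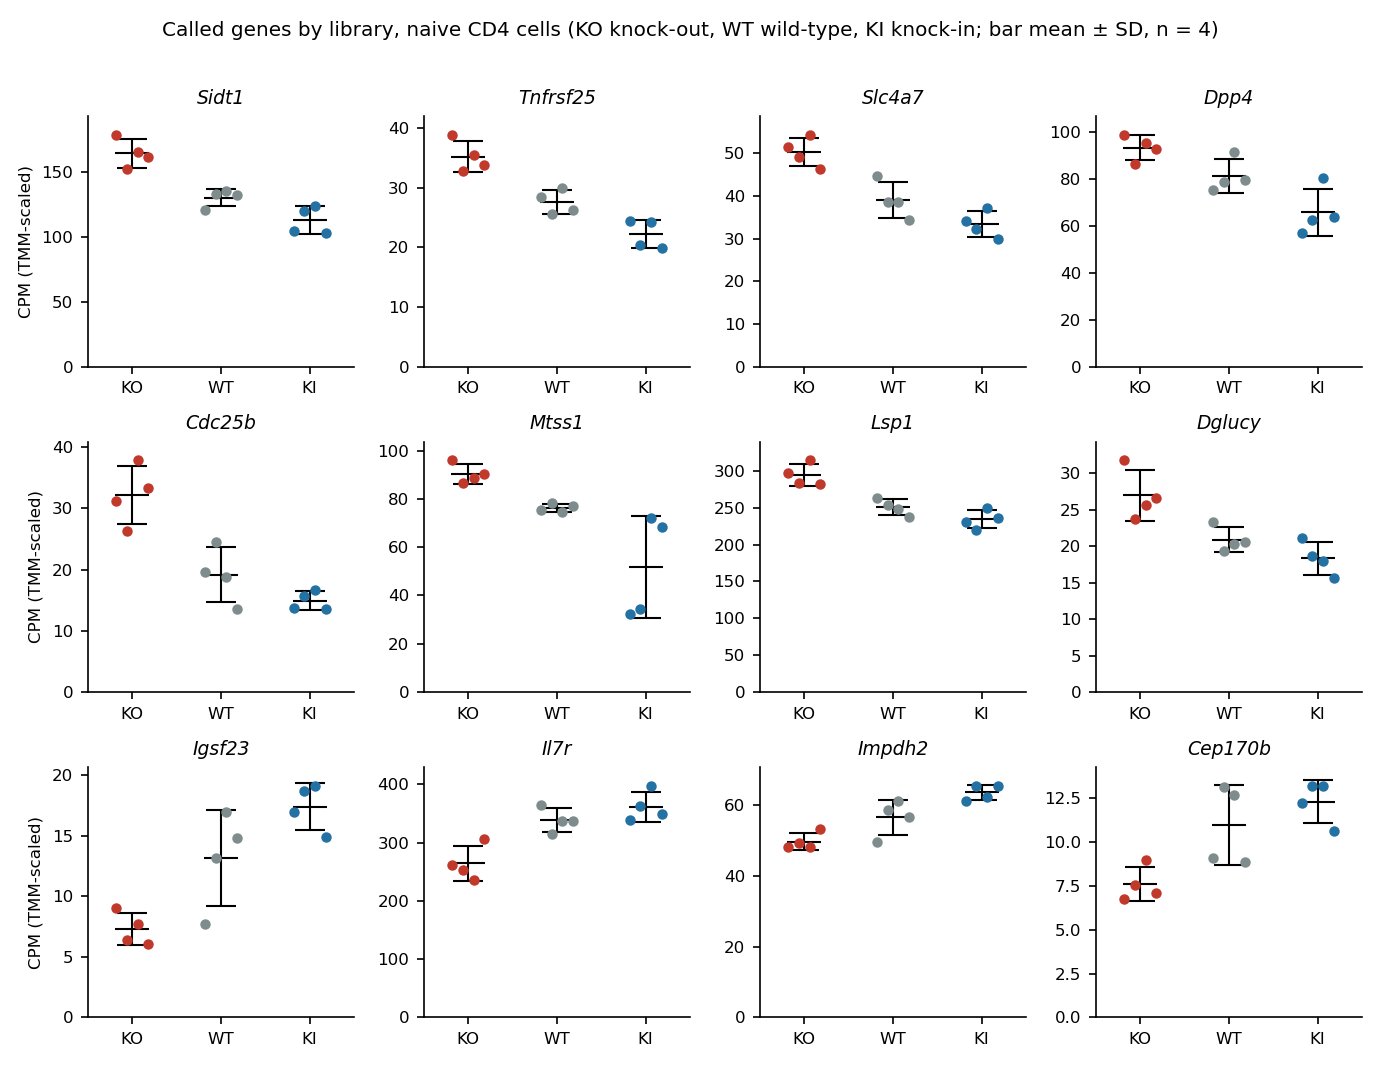
Level in CPM (vertical axes, from 0) of 12 called genes in each naive library, in knock-out (KO, red), wild-type (WT, grey) and knock-in (KI, blue); points are libraries, bars are mean ± SD, n = 4. Knock-out and knock-in points do not overlap in any panel, which the rule for naming genes favoured, and Mtss1 splits within the knock-in.

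Among the 9 lower genes were a cytokine receptor, an AP-1 subunit and a chaperone. Igsf23, an immunoglobulin superfamily member, had 9.01, 6.38, 7.73 and 6.07 CPM in the knock-out and 16.9, 18.7, 19.1 and 14.9 CPM in the knock-in, 2.39-fold lower (SE 0.187 on the log2 scale, edgeR adjusted p = 0.00137). Its groups were well separated, while wild-type replicate 1, at 7.69 CPM, fell within the knock-out range and the other wild-type libraries were at 13.2 to 16.9 CPM. Il7r, the alpha chain of the receptor for IL-7 that keeps naive T cells alive, had 262, 254, 236 and 306 CPM in the knock-out and 338, 362, 398 and 349 CPM in the knock-in. Every knock-out library was below every knock-in library, and wild-type libraries, at 314 to 364 CPM, were all above the knock-out. The log2 fold change was -0.45 (SE 0.0859, edgeR adjusted p = 0.0201). Of the 22 tested naive and quiescent T cell genes it was the sole edgeR call, 12 were positive and their median was 0.00. DESeq2 also called Btg1 lower and Klf3 higher, and limma voom also called Btg1 lower.

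The other lower genes included an enzyme, a secreted protein and an antisense transcript. Impdh2, the rate-limiting enzyme of guanine nucleotide synthesis, had 48.0 to 53.2 CPM in the knock-out and 61.1 to 65.4 CPM in the knock-in (log2 fold change -0.35, edgeR adjusted p = 0.0375). Lbp, the lipopolysaccharide-binding protein, had 1.89 to 3.58 CPM against 5.35 to 6.13 CPM. Cep170b, a microtubule-associated protein, had 6.76 to 8.99 CPM against 10.6 to 13.2 CPM. Gm16299, annotated as antisense, had 2.64 to 4.11 CPM against 5.39 to 14.8 CPM, and since the strand setting of the counting was not given in the sources used here, its reads cannot be told from those of a partner on the other strand. Next in order came Slc38a2, a neutral amino acid transporter (log2 fold change -0.36), Pde3b, a cyclic nucleotide phosphodiesterase (-0.29), and Eef1a1, the main elongation factor (-0.27). These 3 missed the threshold with an edgeR adjusted p of 0.0503 each.

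Calls were sensitive to single libraries. Without knock-out replicate 1, 2 or 3 the count was 6, 50 or 9, and without knock-in replicate 1, 2, 3 or 4 it was 10, 7, 15 or 13. Mir150, Sidt1, Tnfrsf25, Igsf23 and Slc4a7 were among the 6 genes called without any one of the 8 libraries, whereas 18 lost their call at least once, and Faah and Cep170b lost it each time.

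Chaperone genes of the heat shock response leaned lower in the knock-out than in the knock-in. Of 37 genes on the list 35 were tested, 26 were negative and 9 positive, and the median log2 fold change was -0.15 against 0.01 over all genes. In the list, on which early response genes stand beside heat shock genes, edgeR called 2, Hspa8 and Jun. Over all genes tested it called 0.163%. The 9 heat shock members, a subset chosen after the values were seen, were all negative with a median of -0.56. The 26 other members, Jun among them, had a median of -0.06, with 17 negative and 9 positive. DESeq2 and limma voom called Hsp90aa1, Hspa8 and Jun lower.

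Jun, which forms AP-1 with Fos family proteins, had 55.0, 49.9, 23.8 and 43.8 CPM in the knock-out and 150, 90.3, 62.4 and 122 CPM in the knock-in. The groups did not overlap, though knock-in replicate 3 came close, and wild-type libraries had the lowest mean, at 19.2 to 44.5 CPM. The log2 fold change was -1.29 (SE 0.273, edgeR adjusted p = 0.0407). Hspa8, the constitutive Hsp70 that folds new proteins, had 516, 808, 562 and 586 CPM in the knock-out and 1044, 881, 944 and 775 CPM in the knock-in. Knock-out replicate 2 was above knock-in replicate 4, so these groups overlapped, and wild-type libraries were at 602 to 691 CPM. Its log2 fold change was -0.56 (SE 0.109, edgeR adjusted p = 0.0204).

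Among the members that did not pass was Hspa1a, an inducible Hsp70, with 24.1, 35.1, 26.0 and 19.2 CPM in the knock-out and 110, 52.5, 67.8 and 118 CPM in the knock-in. That is a 3.36-fold difference without overlap, and the fit over all groups gave it an edgeR adjusted p of 0.492. At day 7 the same gene ranged from 4.58 to 199 CPM within the knock-in group. Hspa1b, its near-identical copy whose reads may be split with it, had 47.4 to 79.1 CPM against 114.6 to 216.5 CPM. Dnajb1, an Hsp40 co-chaperone, had 64.5 to 75.7 CPM against 102 to 136 CPM and a wild-type range of 50.2 to 62.9 CPM. Hsp90aa1, the inducible Hsp90, had 197 to 256 CPM against 286 to 347 CPM. Neither gene overlapped between the genotypes. Hsph1, an Hsp110 chaperone, had 60.3 to 106 CPM against 104 to 144 CPM, with slight overlap.

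A fit over only the 12 naive libraries called 62 genes, 0.466% of 13314 tested, with 38 higher (0.285%) and 24 lower (0.180%). Of 34 tested early response and heat shock genes it called 8, all lower: Dnajb1, Hsp90aa1, Hspa1a, Hspa1b, Hspa8, Hsph1, Jun and Ppp1r15a. Dnajb1 had a log2 fold change of -0.71 (SE 0.0871, edgeR adjusted p = 0.000594) in that fit.

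Each genotype was also set against wild-type in naive cells, in comparisons that share their libraries with the one above. Knock-in against wild-type called 2 genes (0.0136%), Jun at 1.90 (edgeR adjusted p = 0.00913) and Junb, another AP-1 subunit, at 0.68 (edgeR adjusted p = 0.0345). Knock-out against wild-type called 3 (0.0204%). Mir150 was lower (0.0068%), and Lgals1, a beta-galactoside-binding lectin, at 1.0 (edgeR adjusted p = 0.0307), was among the 2 higher (0.0136%). For the whole early response and heat shock list the median log2 difference was 0.28 in knock-in against wild-type, with 34 of 35 positive. In knock-out against wild-type it was 0.13, with 29 of 35 positive. For the 9 heat shock members the median log2 difference was 0.53 in knock-in against wild-type and 0.04 in knock-out against wild-type. Wild-type means lay between the other means for 21 of the 24 called genes, nearer the knock-in for 16 and nearer the knock-out for 5. The genes were chosen for the distance between the outer groups, so that count is a description.

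**Figure D2:**
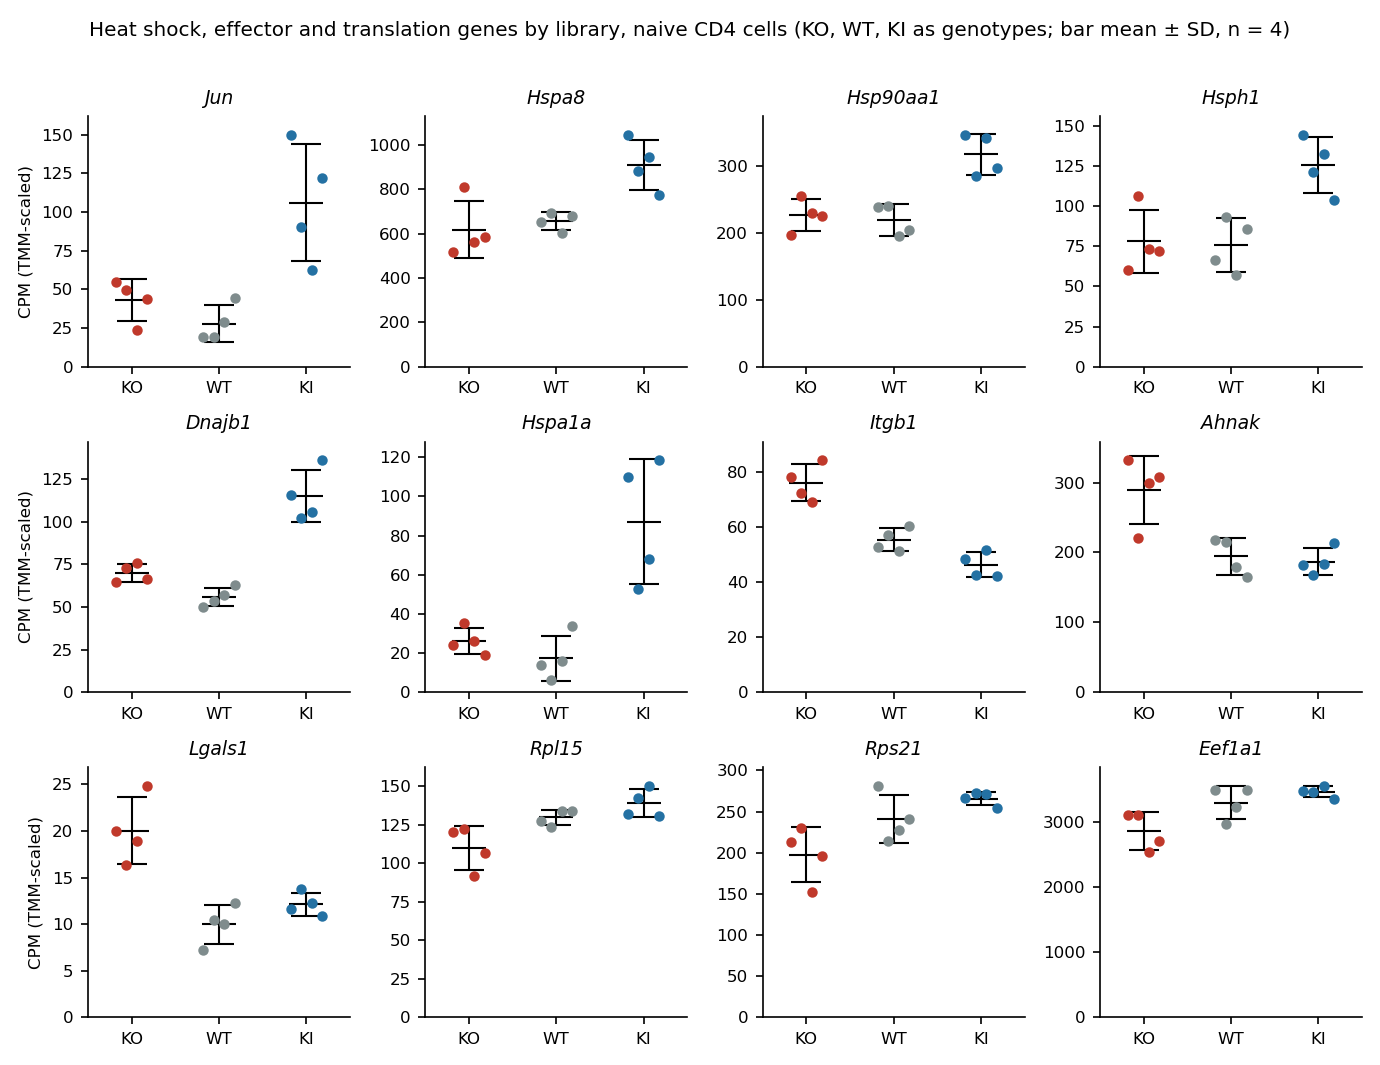
Level in CPM (vertical axes, from 0) of heat shock, effector and translation genes in each naive library of the knock-out (KO, red), wild-type (WT, grey) and knock-in (KI, blue); points are libraries, bars are mean ± SD, n = 4. Knock-in points of Jun and of the chaperones lie above most or all of the others, and knock-out points of Itgb1, Ahnak and Lgals1 lie above those of the knock-in.

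Ribosomal protein messages leaned to the lower side in the knock-out by small amounts. Of 77 tested genes for cytosolic ribosomal proteins reported here, 74 were negative and 3 positive, with a median of -0.18, and edgeR over all libraries called none of them. DESeq2 called 11 lower, where it called 51 of all 14703 genes lower. With limma voom 14 were called lower, where 63 of all 14703 genes were. The edgeR fit over the 12 naive libraries called Rpl29 lower, where it called 24 of 13314 genes lower. At an unadjusted p under 0.05, 40 were lower in the edgeR fit over all libraries, where 1323 of all 14703 genes were in either direction. In 22 the libraries did not overlap in the lower direction, as in 3.56% of all genes tested. At day 7 the median was -0.28, all 77 were negative and 15 were called lower, against 0.238% of all genes.

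Rpl15, a protein of the large subunit, had 120, 122, 91.6 and 106 CPM in the knock-out and 132, 142, 150 and 131 CPM in the knock-in (log2 fold change -0.34, edgeR adjusted p = 0.0700). Rps21, of the small subunit, had 213.5, 229.7, 151.8 and 195.5 CPM against 266, 272, 271 and 254 CPM. Knock-out replicate 3 was the lowest library for both genes, and the groups did not overlap. Eef1a1 had 2541 to 3110 CPM in the knock-out and 3356 to 3560 CPM in the knock-in. Of 29 tested translation initiation and elongation factors 25 were negative, the median was -0.11 and edgeR called none. At an unadjusted edgeR p under 0.05, 10 were lower and 1 higher, beside 1323 of all 14703 genes in either direction. DESeq2 called Eef1a1 and Tpt1 lower, and limma voom called these and Eef2. The list of genes for the unfolded protein and integrated stress responses had a median of -0.03.

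Effector and memory genes leaned to the higher side. Of 30 tested, 26 were positive with a median of 0.32, and edgeR over all libraries called none. At an unadjusted p under 0.05 there were 10 higher and 2 lower, beside 1323 of all 14703 genes in either direction. Itgb1, the beta-1 integrin chain, had 78.2, 72.4, 68.8 and 84.1 CPM in the knock-out and 48.3, 42.6, 51.7 and 42.2 CPM in the knock-in. Ahnak, a giant scaffold protein, had 332, 220, 299 and 308 CPM against 167.7 to 183.6 CPM in knock-in replicates 1 to 3, with knock-in replicate 4 higher but below every knock-out library. Lgals1 had 20, 16.4, 19 and 24.9 CPM against 11.6, 13.8, 12.3 and 10.9 CPM. All 3 separated the genotypes in naive cells, with edgeR adjusted p-values of 0.0780, 0.144 and 0.0700. At day 7 the median of the list was 0.31 and 25 of 30 were positive. There 3 were called higher, against 0.136% of all genes. Itgb1 (edgeR adjusted p = 0.0347) and Ahnak (edgeR adjusted p = 0.0354) were among them, without overlap. Lgals1 overlapped at day 7 (edgeR adjusted p = 0.336). The fit over the 12 naive libraries called Ahnak, Ccr2, Itgb1 and Lgals1 among 29 tested members. DESeq2 called Itgb1 and Lgals1, and limma voom these and Ccr2. Over all genes the naive fit called 38 of 13314 higher, DESeq2 60 of 14703 and limma voom 74 of 14703.

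Myeloid and cytotoxic markers also leaned to the higher side in the knock-out against the knock-in. Of 9 tested myeloid markers among 23, 8 were positive with a median of 1.16, and of 17 tested markers of cytotoxic and gamma-delta T cells and NK cells 16 were positive with a median of 0.57. In the edgeR fit over all libraries none of either list was called. At an unadjusted p under 0.05 there were 5 higher myeloid and 2 higher cytotoxic markers, beside 1323 of all 14703 genes in either direction. Itgam was called higher by DESeq2, by limma voom and by edgeR over the 12 naive libraries, and Klrk1, an activating receptor of NK and T cells, by limma voom. Summed myeloid markers were at 19.6 to 41.2 CPM in the knock-out, 14.9 to 19.6 CPM in the knock-in and 14.8 to 30.9 CPM in wild-type. Lyz1 was at 0 in all 8 libraries, and Lyz2 averaged 2.59 CPM in the knock-out and 0.694 CPM in the knock-in. Summed cytotoxic markers were at 90.3 to 122 CPM in the knock-out and 78.2 to 91.1 CPM in the knock-in. Knock-out replicate 4 held the highest sums, and without it the medians were 0.76 for the myeloid and 0.38 for the cytotoxic list. Without any one library the effector median stayed between 0.28 and 0.45. Against wild-type in naive cells, the effector median was 0.19 in the knock-out and -0.10 in the knock-in. For the myeloid list these medians were 0.02 and -0.78, and for the cytotoxic list 0.35 and -0.16. The part of other cells in the effector difference was not tested.

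Itgam, the integrin chain CD11b of myeloid cells and some lymphocytes, had 3.47 to 9.13 CPM in the knock-out and 2.95 to 3.38 CPM in the knock-in. Myo1f, a myosin of immune cells, had 20.7, 8.64, 17.3 and 18.6 CPM against 6.13, 5.35, 5.15 and 8.05 CPM, with an edgeR adjusted p of 0.0503. Sgk1, a kinase induced by glucocorticoids and salt, had 33.5 to 38.9 CPM against 23.4 to 28.2 CPM and also missed the threshold at an edgeR adjusted p of 0.0503. Neither Myo1f nor Sgk1 overlapped. B cell markers had a positive median of 0.55 over 20 tested genes, and it was -0.30 without knock-out replicate 4.

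Interferon-stimulated genes were positive in 54 of 65 tested, with a median of 0.20. Against wild-type in naive cells the median was 0.02 in the knock-out, with 37 of 65 positive. In the knock-in it was -0.24 against wild-type, with 55 of 65 negative. None was called by edgeR, DESeq2 or limma voom, and at an unadjusted edgeR p under 0.05 there were 17, all higher. Of all 14703 genes, 1323 passed that level in either direction. Mx1, an antiviral GTPase, had 80.1, 16.8, 16.8 and 6.84 CPM in the knock-out and 3.37, 14.8, 5.46 and 3.49 CPM in the knock-in (edgeR adjusted p = 0.125). Knock-out replicate 1 stood far above the rest and the groups overlapped. Usp18, which damps interferon signalling, had 101 CPM in that library and 33.4 to 59.7 CPM in the other knock-out libraries, against 24.7 to 58.1 CPM in the knock-in. Without knock-out replicate 1 the median of the list was 0.07. At day 7 the median was -0.03 and 23 of 65 were positive.

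Reported targets of miR-150 did not rise together in the knock-out. Of 20 genes on the list 17 were tested, 9 were positive and 8 negative, and the median was 0.00. None was called by edgeR, DESeq2 or limma voom, with 1 higher and 2 lower at an unadjusted edgeR p under 0.05. That level was passed by 1323 of all 14703 genes in either direction. Myb had 43.8, 35.1, 53.2 and 44.7 CPM in the knock-out and 28.9, 26.0, 39.1 and 23.5 CPM in the knock-in, with wild-type at 34.1 to 39.6 CPM. Knock-in replicate 3 overlapped the knock-out range. Its log2 fold change was 0.57 (SE 0.186), the largest of the list, at an edgeR adjusted p of 0.280. Foxp1, a regulator of quiescence, differed by -0.04 (SE 0.0597) and Tet3, a DNA demethylase, by 0.07 (SE 0.0648). Pdcd4, an inhibitor of translation, differed by -0.16, and Slc2a1, the glucose transporter, by -0.24.

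Of the 38 lists examined 32 held no gene called by edgeR in the fit over all libraries, though other fits called members of some of them. The median was 0.02 for T cell receptor signalling, for PI3 kinase and mTOR signalling, for the respiratory chain and for chromatin modifiers, 0.01 for NF-kappaB, -0.01 for the proteasome and -0.07 for glycolysis. Larger medians were seen for erythroid and platelet markers, at 1.67 over 5 tested, and for Th2 genes, at 0.42 over 6 tested. Th17 genes had 0.23 and mitochondrially encoded genes -0.12. These medians leaned on single libraries. Without knock-out replicate 4 the erythroid and platelet median was 0.38. Without knock-out replicate 3 the Th17 median was 0.07 and the Th2 median 0.29. Without knock-in replicate 3 the mitochondrial median was -0.03. Sgk1, of the PI3 kinase list, was called higher by DESeq2, by limma voom and by edgeR over the 12 naive libraries. Ndufb9, of the respiratory chain, was called higher by DESeq2.

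**Figure D3:**
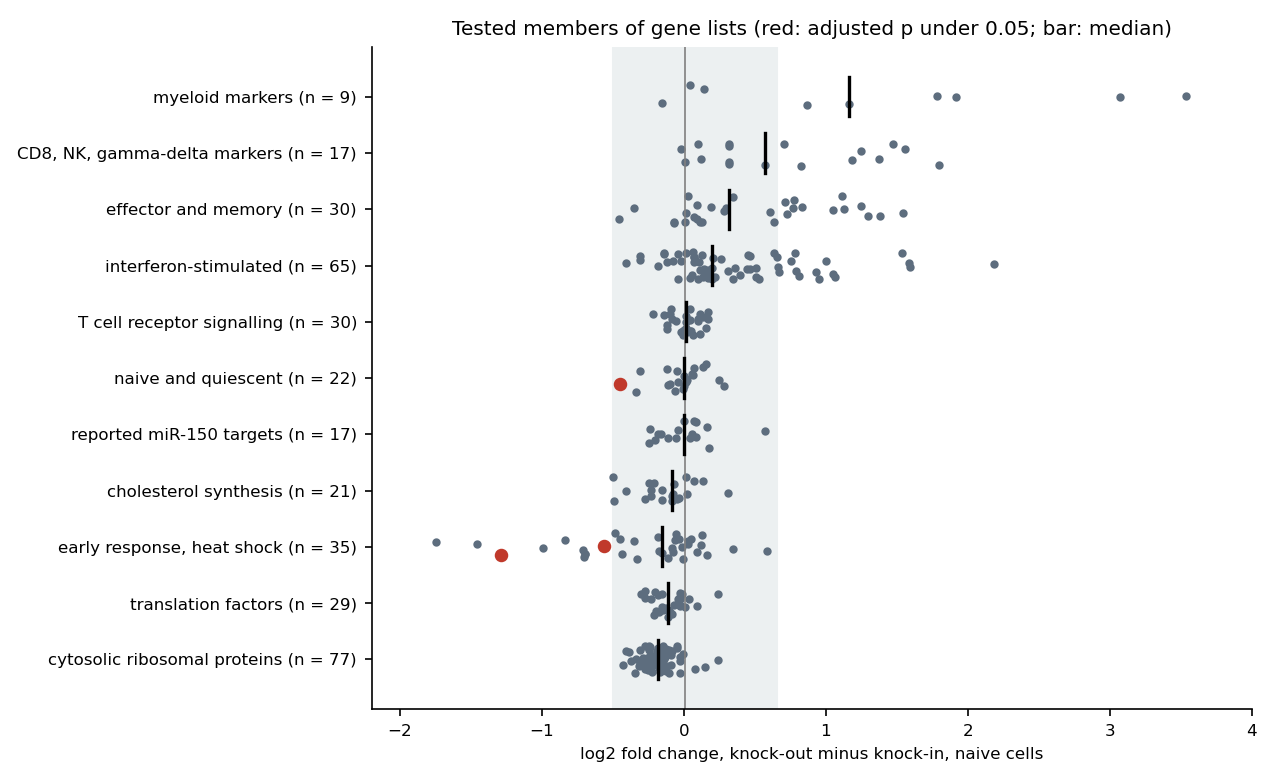
Log2 fold change, knock-out minus knock-in, in naive cells (horizontal axis) of each tested member (points) of 11 gene lists; black bars are medians, red points passed an adjusted p of 0.05, the grey line is the median of all genes tested and the grey band spans their 5th to 95th percentile, -0.50 to 0.66. Ribosomal protein genes lie in a narrow cluster left of 0, and myeloid markers spread to 3.54.

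Genes around Mir150 leaned to the higher side. Of 40 other tested genes within 500 kb that are reported here, 31 were positive and 9 negative, with a median of 0.19, and 1 was called. Among all genes tested 52.2% were positive and 0.163% were called. Rcn3, a calcium-binding protein of the endoplasmic reticulum (chr7:45082913-45092221), had 6.55, 6.66, 8.11 and 5.58 CPM in the knock-out, 2.78, 1.36, 1.87 and 1.97 CPM in the knock-in and 2.27 to 4.47 CPM in wild-type. All knock-out libraries exceeded all others. The 3.29-fold difference had a log2 SE of 0.322 and an edgeR adjusted p of 0.0201. Gm45713, a predicted gene with its nearest end 4.10 kb from Mir150, had 58.6 to 69.6 CPM against 44.9 to 55.2 CPM (edgeR adjusted p = 0.122). Its annotation overlaps that of Rpl13a, a ribosomal protein gene on the same strand with 1089 and 980 CPM, so its count is uncertain at both stages. Ppp1r15a, the GADD34 regulatory subunit that reverses the integrated stress response, had the most negative value of these: it lies 401 kb away, had 20.1 to 23.4 CPM in the knock-out and 23.3 to 48.2 CPM in the knock-in, and is also on the early response list (log2 fold change -0.70, edgeR adjusted p = 0.122). At day 7, 16 of the 40 neighbours were positive and 3 were called: Rcn3, Gm45713 and, lower, Ppp1r15a. Among all genes 0.374% were called there. What the knock-out allele leaves of the locus is not in the labels, so an effect of the allele on its neighbours and an effect of miR-150 cannot be told apart. Igsf23 (chr7:19937305-19950756) and Lsp1 (chr7:142460809-142494867), called in naive cells, lie on the same chromosome outside this window. Chromosome 7 held 5 of the 24 naive calls and 9 of the 55 at day 7, with 6.90% of tested genes. Whether these distant differences come with the allele was not tested.

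**Figure D4:**
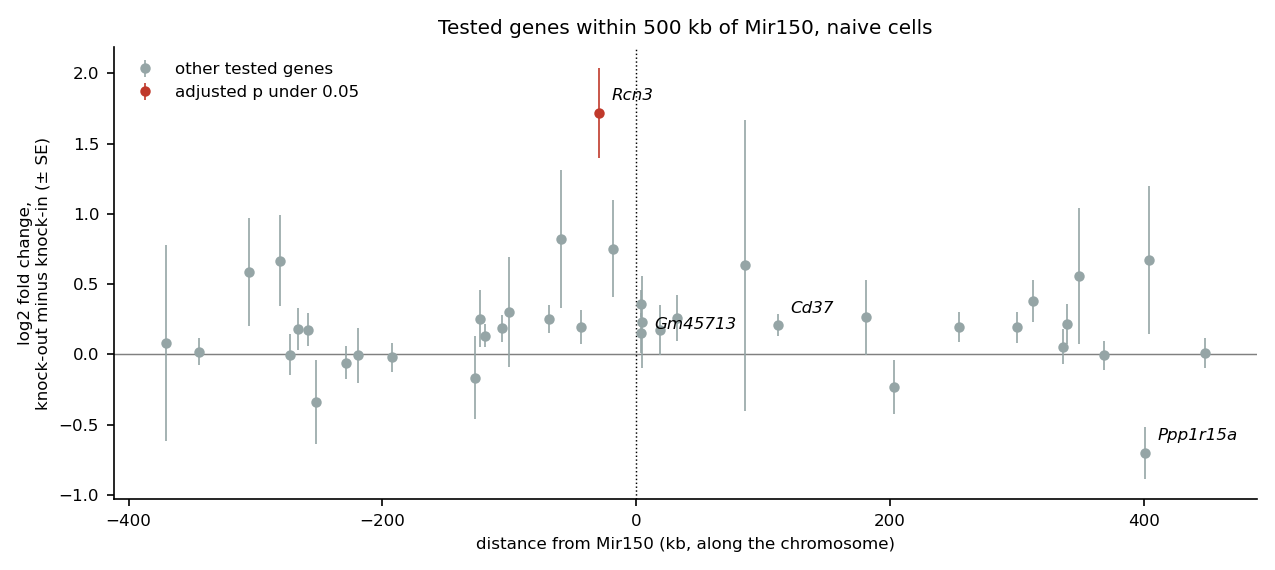
Log2 fold change, knock-out minus knock-in, in naive cells (vertical axis, bars ± SE) of the 40 other tested genes reported within 500 kb of Mir150, by distance from it in kb (horizontal axis); red points passed an adjusted p of 0.05. Rcn3 is the called gene, and 31 points lie above 0.

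The same contrast was made at day 7 after EAE induction in 8 other libraries, 4 of each genotype. There 55 genes were called (0.374%), 20 higher (0.136%) and 35 lower (0.238%). Without knock-out replicate 2, 3 or 4 of that stage the count was 35, 23 or 28, and without knock-in replicate 1, 2 or 4 it was 20, 15 or 21. There were 5 genes called at both stages, all in the same direction, with Mir150, Igsf23, Rcn3 and Cep170b among them. The 5 are 20.8% of those called in naive cells and 9.09% of those called at day 7. Of the 24 genes called in naive cells, 23 had the same sign at day 7, 22 had a smaller difference there and 11 had libraries that did not overlap. These genes were chosen for their difference in naive cells, so the count of smaller differences is a description. Of the 55 called at day 7, 51 had the same sign in naive cells. The shares of all genes without overlap at day 7 were 2.26% higher and 2.58% lower.

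Igsf23 kept its size, with 5.91, 5.08, 8.45 and 6.84 CPM in the knock-out and 12.1, 19, 16 and 15 CPM in the knock-in at day 7 (log2 fold change -1.22, SE 0.190, edgeR adjusted p = 0.00244). Cep170b had 7.47 to 9.19 CPM against 14.7 to 17.5 CPM, an edgeR adjusted p of 0.00221 at day 7. Il7r had 222.6 to 276.0 CPM against 271 to 328 CPM, with slight overlap (log2 fold change -0.30, edgeR adjusted p = 0.150). Sidt1 had 129 to 154 CPM against 103 to 121 CPM without overlap and just missed the threshold.

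Tnfrsf25 overlapped between the genotypes at day 7, with 31.2 to 39.6 CPM in the knock-out and 28.5 to 35.4 CPM in the knock-in. The log2 fold change was 0.06 (SE 0.0970), and the test of the difference between stages gave -0.59 (SE 0.138) with an edgeR adjusted p of 0.582. Lbp had 2.73 to 3.28 CPM against 2.88 to 3.31 CPM at day 7. H2-T22 was the gene with the opposite sign, at -0.05. In the test of the difference between stages edgeR called 0 genes of 14703 (0%), with 1096 at an unadjusted p under 0.05, and DESeq2 called 2. A difference between the stages is therefore not shown for any of these genes.

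**Figure D5:**
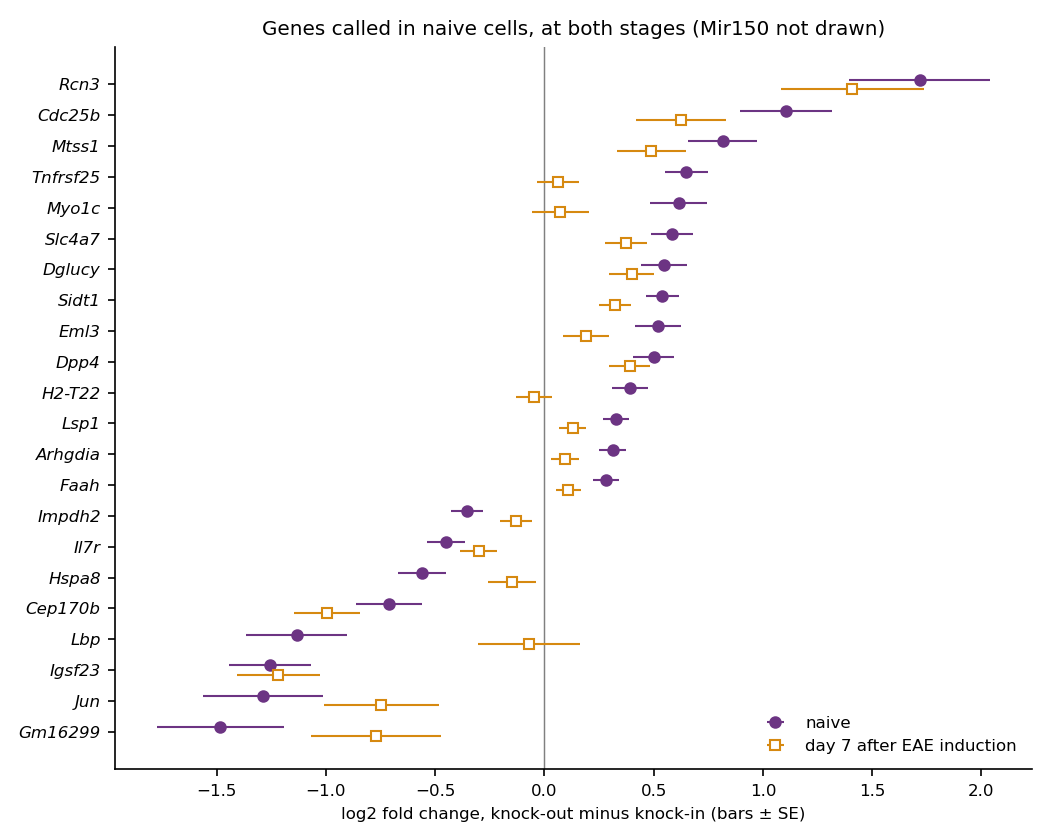
Log2 fold change, knock-out minus knock-in (horizontal axis, bars ± SE), of 22 genes called in naive cells, in naive cells (filled circles) and at day 7 after EAE induction (open squares). Rcn3, Igsf23 and Cep170b lie far from 0 at both stages, and Tnfrsf25, Myo1c, H2-T22 and Lbp lie near 0 at day 7.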

How the data were processed

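The authors deposited one table of raw counts, whole numbers by Ensembl gene, and all 25 library columns entered the fit. mm10 and DESeq2 are named in the submitters' processing notes. As to aligner, counter, strand setting and annotation: not given in the sources used here. Symbols and positions came from GENCODE M21 (45229 of 46078 IDs), sequences from RefSeq GRCm38.p6, where 30 of the 37 early response and heat shock genes had a promoter window.

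Filtering used filterByExpr of edgeR (minimum count 10, minimum total 15), then TMM and the quasi-likelihood test with 6 group means. Tests were two-sided, adjusted by Benjamini-Hochberg over 14703 genes, at 0.05. Replicates all differed by more than sampling noise. Limits from counts cover counting error only.

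Members and lists were chosen with earlier results of these data known. The naming rule took Mir150 and Myb, up to 12 called genes a direction by size (at least 5 CPM, no overlap), filled to 10 by smallest p, up to 6 neighbours of Mir150, up to 8 genes called at both stages, and up to 4 called or the 2 most abundant members of each list. The text gives those it needs, and 1 called gene is not reported here, though counts of calls include it. Other genes, Hspa8, Gm16299, Myo1f, Sgk1 and Mx1 among them, were chosen after their values were seen. Alternatives were RLE factors, DESeq2, limma voom, other filters, fewer libraries, the table without genes for haemoglobin, mitochondria and rRNA, terms for the order of libraries, and leaving out each library.

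Versions: edgeR 4.0.16 with limma 3.58.1 and DESeq2 1.42.0 in R 4.3.3, pandas 2.3.3 and matplotlib 3.10.9 in Python 3.11.15.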

Additional observations from a re-analysis of the deposited data

Results flagged for a closer look

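In 6 of 151 sets of 4 naive libraries examined, one library lay farther from its nearest neighbour than Dixon's 95% limit allows, and chance flags about 1 set in 20. Knock-out replicate 2 was low for Eml3, at 39.7 CPM, and for Fos, an AP-1 subunit, at 2.13 CPM. It was high for Pde3b, at 221.6 CPM. In the knock-in, replicate 2 was high for Ccr2, a chemokine receptor, at 2.80 CPM, and for S100a9, a neutrophil protein, at 0.399 CPM. Summed erythroid and platelet markers reached 13.1 CPM in knock-out replicate 4 and were 3.75 to 4.84 CPM in the other knock-out libraries.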

How the results depend on the processing

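The 24 calls in naive cells became 111 (60 higher, 51 lower) with DESeq2, 137 (74 and 63) with limma voom and quality weights, 269 (172 and 97) without a filter, 37 (24 higher) with a stricter filter and 62 (38 and 24) with the 12 naive libraries alone. The other 5 settings gave 27 to 32. Leaving out 1 library gave 6 to 50 calls, 4 to 22 higher and 2 to 28 lower. At day 7 the 55 calls became 137 with DESeq2 and 404 without a filter, and 15 to 57 with 1 library left out. The difference between stages had 0 calls, 2 with DESeq2 and 241 without a filter. The cause of these changes was not tested, beyond fewer libraries when one was left out. None of the 24 called genes changed sign in 10 settings and 8 leave-outs, 14 were called in all 10 settings, and 6 in all 18. No paired analysis was possible because the replicate numbers only follow accession order. Depth limits the low genes: Rcn3, Lbp, Gm16299 and Cep170b lay under 15 CPM in every naive library.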
